A study of Mus musculus with 3 samples.

Results

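The natriuretic peptide system was examined through 8 genes of the 32285 genes in the count matrices. These were the ligand genes Nppa and Nppb, the receptor genes Npr1, Npr2 and Npr3, the processing enzyme genes Corin and Furin, and Mme, which encodes the peptidase neprilysin. They were taken by symbol, and all 8 had unique molecular identifiers (UMIs, each standing for 1 captured transcript) in all 3 sections. The data were spatial transcriptomes of hearts of C57BL/6 mice, with 1 cryosection per condition on a Visium array. In sham, the mouse was given vehicle by gavage for 7 days and then had a needle passed with no vessel tied. In I/R (ischemia-reperfusion), vehicle for 7 days was followed by ligation of the left anterior descending coronary artery for 30 min and reperfusion for 24 h. In SBP, the mouse was given Shexiang Baoxin Pill (labelled MUSKARDIA) for 7 days and then had the same ligation and reperfusion. No uninjured heart was given SBP, so the effect of the pill without injury was not measured. With 1 section per condition there was no replicate, no test between conditions was possible, and every difference below compares these sections.

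Natriuretic peptides are hormones of the heart muscle. Nppa encodes the precursor of atrial natriuretic peptide (ANP) and Nppb that of B-type natriuretic peptide (BNP), which are released when the wall is stretched and make the kidney excrete salt and vessels relax. Corin, a transmembrane serine protease on cardiomyocytes, cuts pro-ANP, and furin, a proprotein convertase of the secretory pathway, cuts pro-BNP. Both hormones signal through the guanylyl cyclase receptor encoded by Npr1, whereas Npr2 encodes the receptor for C-type natriuretic peptide, and both receptors make cyclic GMP. Npr3 encodes the clearance receptor, which takes the peptides into the cell, and neprilysin degrades them outside it. In the adult heart Nppa is mainly an atrial gene, and its return in the ventricle, with Nppb, Ankrd1, Myh7 and Acta1, is known as part of the fetal gene program of the loaded or injured ventricle.

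Nppa (ENSMUSG00000041616) lies on chromosome 4 of GRCm38 (mm10) from 148000722 to 148002079 on the plus strand, and Nppb (ENSMUSG00000029019) lies 13517 bases before it, from 147985788 to 147987205 on the same strand. Npr1 is on chromosome 3 (90450591 to 90465866), Npr2 on chromosome 4 (43631935 to 43651244), Npr3 on chromosome 15 (11839896 to 11907287), Corin on chromosome 5 (72300025 to 72504473), Furin on chromosome 7 (80388585 to 80405436) and Mme on chromosome 3 (63241537 to 63386030). Since the ligand genes carry most of the differences described here, the bases before the RefSeq start of Nppa are shown, with matches to known cardiac motifs in capitals. All 8 genes were found in the RefSeq promoter table (GRCm38.p6). The Nppa window is chr4:148000472-148000721, plus strand, and ends at the base before the start.

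Nppa: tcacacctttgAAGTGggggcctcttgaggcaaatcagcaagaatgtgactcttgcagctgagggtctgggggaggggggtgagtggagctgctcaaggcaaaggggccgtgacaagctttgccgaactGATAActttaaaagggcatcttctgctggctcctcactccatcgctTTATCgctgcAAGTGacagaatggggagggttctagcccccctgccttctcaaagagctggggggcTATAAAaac

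For Nppb only the stretch from 105 to 79 bases before the RefSeq start is shown (chr4:147985795-147985821, plus strand), which holds its GATAA and CATTCC matches. The GENCODE transcript starts further upstream, at 147985788, so that these matches lie in transcribed sequence by that annotation and before the start by RefSeq.

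Nppb: GGAATGcagctGATAAatcagaGATAA

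The capitals mark GATAA, the core bound by GATA factors, AAGTG, the core bound by Nkx2-5, CATTCC, the M-CAT core bound by TEAD factors, and TATAAA. The last of these was searched on the plus strand and the others on both, so that TTATC is GATAA and GGAATG is CATTCC on the minus strand. In the 250 bases before the start, GATAA occurred at 2 places in Nppa and at 2 in Nppb, AAGTG at 2 in Nppa and at 0 in Nppb, and CATTCC at 1 in Nppb and at 0 in Nppa. TATAAA occurred at 1 place in each. Of 32851 promoter windows of the same length, 22.6% held GATAA, 40.7% AAGTG, 12.6% CATTCC and 7.59% TATAAA. The E-box, CANNTG, was at 2 places in Nppa (1 of them overlapping an AAGTG) and at 1 in Nppb (overlapping a GATAA by its last base), and 66.2% of windows held it. TGANTCA, the AP-1 core, and the CArG box had no match in either window, and 6.75% and 1.47% of windows held them. Among the other 6 genes GATAA and the CArG box had no match in any window. The other motifs were not limited to the ligand genes. Furin had AAGTG at 4 places and TATAAA at 1, and Mme had CATTCC and TGANTCA at 1 place each, in separate windows. The E-box was also found in Npr2, Npr3, Corin and Furin. These are matches of letters and were not tested as binding sites.

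The sections held 2234 spots in sham, 2082 after I/R and 1960 with SBP after a filter of 200 detected genes, with 25118258, 30238530 and 21631280 UMIs. A spot is a small area that can hold several cells. Levels are given as CPM, the UMIs of a gene per 1000000 UMIs of the spots, with exact 95% intervals in parentheses that cover counting error only. Between 44.3% and 48.6% of UMIs were from mitochondrial genes. The median log2 ratio of all genes with at least 50 UMIs over both sections, called the genes tested here, was 0.24 for I/R over sham, -0.17 for SBP over I/R and 0.08 for SBP over sham, and each ratio below is read beside it. The sections were mainly ventricular by their markers. Myl2, the ventricular myosin light chain, was at 8417 to 12116 CPM, while Myl7, its atrial counterpart, had 3 or 4 UMIs in each section, Bmp10 had 0 in all of them, Sln had 3 in sham and 0 in the others, and Mybphl had 1 or 2. The other 3 genes of the atrial list were detected in every section, with 75 to 79 UMIs of Myl4, the atrial light chain, 23 to 28 of Dkk3 and 575 to 760 of Kcnj3.

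Nppa was higher in both injured sections than in sham and was highest in SBP. In sums over spots, fewer cells of a type and less RNA per cell cannot be told apart. The level was 458 CPM in sham (450 to 467), 1146 after I/R (1134 to 1158) and 1380 with SBP (1365 to 1396), from 11507, 34662 and 29855 UMIs. The log2 ratio was 1.32 for I/R over sham (1.29 to 1.35), a 2.50-fold difference, and 1.59 for SBP over sham (1.56 to 1.62), a 3.01-fold difference. Between the injured sections it was 0.27 for SBP over I/R (0.25 to 0.29). Among all genes tested, Nppa ranked 560th of 12231 for I/R over sham, 44th of 11768 for SBP over sham and 1130th of 12151 for SBP over I/R. The size of the difference between SBP and I/R depended on the spots included. Without the spots richest in endocardial markers (above the sham 95th percentile of their summed share of UMIs), which were 5.86% of spots in I/R and 9.13% in SBP, SBP over I/R had a log2 ratio of 0.012, beside the median of all genes of -0.17 over the whole sections. The same exclusion left I/R over sham at 1.44 and SBP over sham at 1.45. The summed level of the 5 endocardial markers was 59.9 CPM in sham, 57.6 after I/R and 95.1 with SBP, and its part in the difference was not tested.

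**Figure D1:**
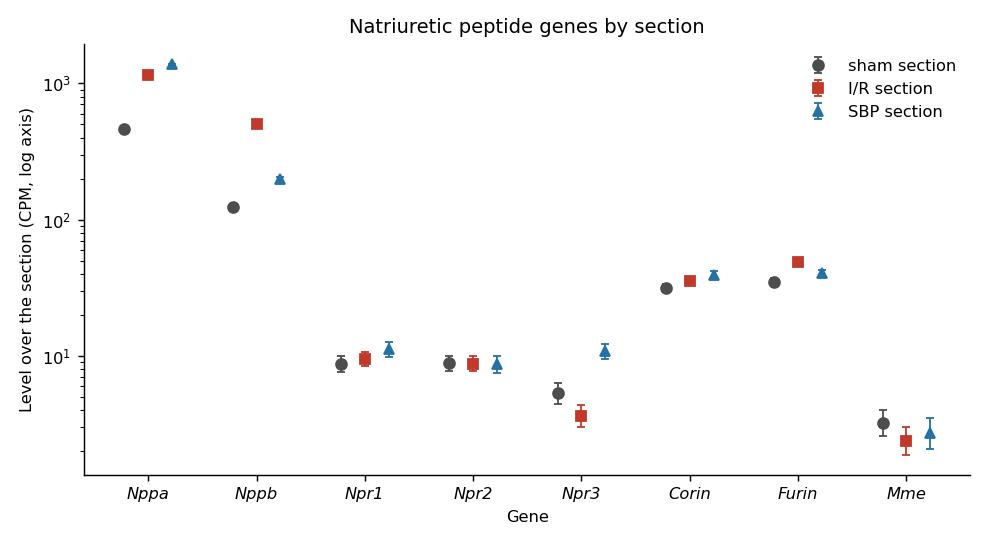
Level of the 8 genes in the sham, I/R and SBP sections in CPM on a log axis, 1 section per condition, with bars for the exact 95% counting interval. Nppa was 458, 1146 and 1380 CPM in sham, I/R and SBP and Nppb 124, 505 and 198, whereas Npr2 was between 8.69 and 8.80 CPM in all 3 sections.

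Of the 8 genes, 2 were past 2-fold for I/R over sham, both higher, namely Nppa and Nppb. Of 12231 genes tested, 8.9% were past 2-fold in that comparison and 8.38% were past it in the higher direction. For SBP over I/R, Npr3 was higher and Nppb lower past 2-fold, where 4.87% of 12151 genes were past 2-fold, 0.337% higher and 4.53% lower. For SBP over sham, Nppa and Npr3 were higher past 2-fold, beside 2.21% of 11768 genes in either direction and 1.48% higher. Npr3 lay just past the limit, at 1.03, and was below it when the section totals were replaced by size factors, trimmed means (TMM) or totals without mitochondrial genes. The median log2 ratio over the 8 genes was 0.14, 0.17 and 0.34 in these comparisons, which share sections and are not independent.

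The distribution of Nppa over spots differed in form between the sections. In sham the median spot had 1.23 Nppa UMIs per 10000 UMIs, the 90th percentile was 6.75, the 99th was 53.5 and the highest spot reached 269.8. In I/R these values were 4.60, 27.1, 82.0 and 303.7, and in SBP they were 4.27, 33.3, 138 and 414.5. The median and the 90th percentile were thus several times higher in the injured sections, while the highest spots were of a similar order in all of them. Accordingly, the 1% of spots with most Nppa UMIs held 36.2% of all Nppa UMIs in sham, 16.6% after I/R and 21.1% with SBP. Without those spots the log2 ratio was 1.71 for I/R over sham, 1.90 for SBP over sham, and SBP over I/R was at 0.19. Nppb was less concentrated, with 10.9%, 12.0% and 14.5% of its UMIs in its top 1% of spots.

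**Figure D2:**
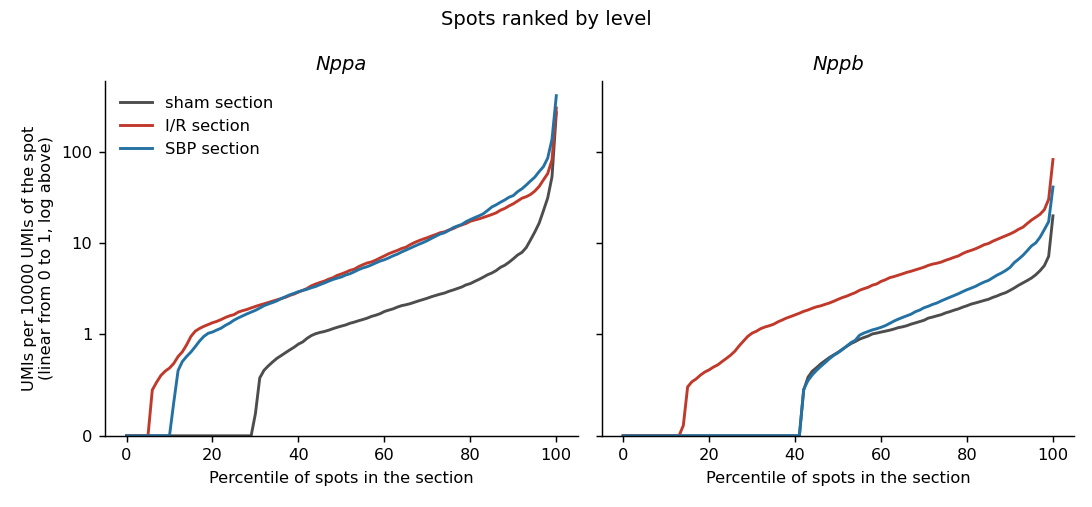
Spots of each section ranked by Nppa (left) or Nppb (right), with the percentile of spots on the horizontal axis and UMIs per 10000 UMIs of the spot on the vertical axis, linear from 0 to 1 and log above. For Nppa the I/R and SBP curves lie above sham and run close together up to the 80th percentile (17.4 and 18.2), then part to 37.3 and 53.1 at the 95th and 82.0 and 138 at the 99th. For Nppb the SBP curve lies on the sham curve in its lower part.

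After every spot was thinned to 6500 UMIs, so that depth was equal, 57.9% of sham spots (55.8% to 60.0%) had an Nppa UMI, 81.8% of I/R spots (79.9% to 83.5%) and 81.6% of SBP spots (79.7% to 83.4%). Without thinning, the shares were 70.0%, 94.4% and 89.0%. The injured sections therefore did not differ beyond counting error in the share of spots with Nppa at equal depth, although their CPM did. Spots too shallow to be thinned numbered 132 in sham, 202 after I/R and 213 with SBP.

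Spots with Nppa above 13.3 UMIs per 10000, the sham 95th percentile, made up 5.01% of spots in sham, 26.2% after I/R (24.3% to 28.1%) and 25.7% with SBP (23.8% to 27.7%). They held 61.9%, 75.7% and 80.4% of the Nppa UMIs. In sham, genes of the ventricular conduction system and the endocardium were among those higher in these spots. Cntn2, a cell adhesion gene of Purkinje fibers, was at 33.9 CPM in Nppa-high sham spots and 1.61 in the other spots, a log2 ratio of 4.40 (3.76 to 5.04). Gja5, the connexin 40 of conduction cells and arterial endothelium, had a log2 ratio of 2.19 (1.46 to 2.88), and Cytl1, an endocardial marker here, of 2.59 (2.15 to 3.01). Myh7, the slow myosin heavy chain, was at 281 against 88.6 CPM.

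By the same limit, the ratios of Cntn2 and Cytl1 were lower in the injured sections, most clearly in I/R. The limit took 5.01% of spots in sham but 26.2% after I/R and 25.7% with SBP, so groups of unlike size are compared. The log2 ratio of Nppa-high over other spots for Cntn2 was 2.35 after I/R (1.57 to 3.15) and 3.35 with SBP (2.46 to 4.33). For Cytl1 it was 0.22 after I/R (-0.30 to 0.72) and 1.73 with SBP (1.38 to 2.08). Npr3 followed Cytl1, with 2.43 in sham (1.82 to 3.01), -0.07 after I/R (-0.76 to 0.57) and 1.82 with SBP (1.44 to 2.20). Ankrd1, a stretch-responsive nuclear protein gene of cardiomyocytes, had the opposite order, at 0.39 in sham, 1.42 after I/R and 1.24 with SBP. Thus Npr3 shared spots with high Nppa in sham and SBP, whereas in I/R no difference between Nppa-high and other spots was detectable from 110 Npr3 UMIs. An equal share, the 1% of spots with most Nppa per 10000 UMIs, gave Cntn2 at 4.96 in sham (4.24 to 5.64). There it was 3.94 after I/R (2.85 to 4.90) and 4.73 with SBP (3.77 to 5.61), with overlapping intervals. Cytl1 was at 3.80 (3.24 to 4.32), 1.18 (-0.46 to 2.43, from 5 UMIs) and 3.23 (2.64 to 3.77) in sham, I/R and SBP.

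Nppa was also compared between the spots richest in a marker list, taken as the top 10% of each section by the summed share of UMIs of the list, and the other spots. In fibroblast-rich spots it was at 1654 against 301 CPM in sham, 2576 against 987 after I/R and 4337 against 1014 with SBP, log2 ratios of 2.46, 1.38 and 2.10. In conduction-rich spots the log2 ratios were 2.24, 1.24 and 1.37, and in endocardial-rich spots 1.88, 0.72 and 1.89. In cardiomyocyte-rich spots they were 1.53, 0.45 and 1.03, and in smooth muscle-rich spots 1.12, 0.83 and 0.88. All of these intervals lay above 0, and the I/R value was the lowest of the sections for each of these lists. In endothelial-rich spots the log2 ratios were 0.27, 0.43 and 0.46, smaller than in endocardial-rich spots of the same section.

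Nppb was at 124 CPM in sham, 505 after I/R and 198 with SBP. Unlike Nppa, Nppb had its lower injured level in SBP, with a log2 ratio of -1.35 (-1.40 to -1.31). The number of Nppa UMIs per Nppb UMI, which needs no scaling by depth, was 3.71 in sham (3.56 to 3.86), 2.27 after I/R (2.23 to 2.31) and 6.99 with SBP (6.76 to 7.21). The order of SBP above sham above I/R held in spots below the Ankrd1 limit defined next, at 9.90, 4.03 and 2.64. Above that limit the ratio was 4.60 in SBP, 2.05 in I/R and 1.96 in sham, so that sham and I/R were not ordered as before and their intervals overlapped (1.76 to 2.19 in sham and 2.01 to 2.11 in I/R).

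Nppa and Nppb were found together in many spots. After thinning, 28.8% of sham spots (26.9% to 30.8%) had at least 1 UMI of each, 60.2% of I/R spots (57.9% to 62.4%) and 42.4% of SBP spots (40.0% to 44.7%). The product of the separate shares was 26.2%, 56.8% and 38.3%, so that the observed share was 1.10, 1.06 and 1.11 times the product. Among spots with Nppb, 63.7% also had Nppa in sham, 86.7% after I/R and 90.1% with SBP. Read the other way, 49.7% of spots with Nppa also had Nppb in sham, 73.6% after I/R and 51.9% with SBP. In SBP 39.2% of spots had an Nppa UMI and no Nppb UMI, against 21.6% in I/R and 29.1% in sham. These shares depend on depth, and without thinning the shares with both were 43.1%, 82.0% and 54.4%.

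The genes were then compared between spots high in Ankrd1 and the rest. Ankrd1-high spots had more than 27.0 Ankrd1 UMIs per 10000, the 95th percentile of sham, and numbered 112 of 2234 in sham (5.01%, as set by the limit), 479 of 2082 after I/R (23.0%) and 326 of 1960 with SBP (16.6%). Their median depth was 14927 against 10502 UMIs in sham, 17348 against 14103 after I/R and 11990 against 10453 with SBP. In I/R, Nppa was at 2439 CPM in Ankrd1-high spots and 667 in the others, a log2 ratio of 1.87 (1.84 to 1.90) that ranked 11th of 11407 genes. In SBP it was at 2754 and 1076 CPM, a log2 ratio of 1.36 (1.32 to 1.39) that ranked 78th of 10468. Ankrd1-high spots held 57.5% of Nppa UMIs in I/R and 36.2% in SBP.

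In sham, Nppa was at 519 CPM in Ankrd1-high spots and 453 in the others, a log2 ratio of 0.20 (0.10 to 0.29), beside a median of 0.31 over all genes. The direction of this sham value was not stable. It was -0.91 with a stricter limit that 56 sham spots passed, -0.55 with mitochondrial genes left out of the totals and 0.81 with equal weight for each spot. Of the 112 Nppa-high spots of sham, 14 were Ankrd1-high, which is 12.5% of either set. In I/R, 290 spots were high in both, which is 53.2% of the Nppa-high and 60.5% of the Ankrd1-high spots, and in SBP the 185 shared spots were 36.7% and 56.7%.

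Between sections, the Nppa difference was found on both sides of the limit. In Ankrd1-high spots the log2 ratio was 2.23 for I/R over sham (2.14 to 2.33), whereas SBP over I/R gave 0.18 (0.14 to 0.21). In the other spots it was 0.56 for I/R over sham (0.52 to 0.59) and 1.25 for SBP over sham (1.21 to 1.28), while SBP over I/R gave 0.69 (0.66 to 0.72). The higher Nppa of SBP over I/R was therefore larger in spots below the Ankrd1 limit, whereas I/R over sham was larger above it. These values were not computed without endocardial-rich spots, whose exclusion lowered the whole-section ratio of SBP over I/R, as given above. Nppb in the other spots was at 112 CPM in sham and 109 in SBP, with a log2 ratio of -0.05 (-0.13 to 0.04).

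By Ankrd1 in 5 bins set by sham percentiles, Nppa in I/R was at 239, 350 and 387 CPM up to the 75th percentile and was then 1205 and 2439. In SBP it was 456 and 467 up to the 50th percentile and 1080, 1825 and 2754 above it. In sham it went from 239 through 397 and 523 to 665 and was 519 in the highest bin. Nppb increased with each bin in all 3 sections, from 68.6 to 264 CPM in sham, from 75.4 to 1187 after I/R, and from 41.8 to 599 with SBP. Hence the lowest bin of SBP was above that of the other sections for Nppa and below them for Nppb.

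**Figure D3:**
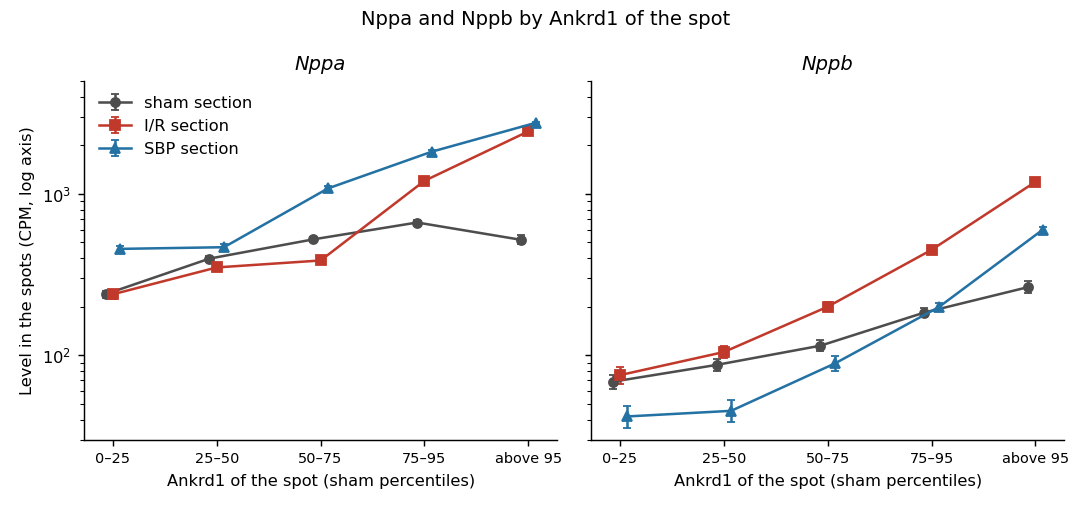
Nppa (left) and Nppb (right) in CPM on a log axis in spots binned by Ankrd1 per 10000 UMIs, with bin limits at the 25th, 50th, 75th and 95th percentiles of sham, 1 line per section and bars for the exact 95% counting interval. Nppa of I/R is at sham levels in the lowest bin (239 CPM in both) and reaches 2439 CPM in the highest, whereas SBP starts at 456 CPM, and Nppb increases with each bin in every section.

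Among the receptors, Npr1 and Npr2 were low and nearly level between sections. Npr1 was at 8.68 CPM in sham (7.57 to 9.91), 9.46 after I/R (8.39 to 10.6) and 11.1 with SBP (9.78 to 12.6). SBP over sham had a log2 ratio of 0.36 (0.09 to 0.63), while the intervals of I/R over sham and SBP over I/R included 0. Npr2 was at 8.80 CPM in sham, 8.76 after I/R and 8.69 with SBP, and its log2 ratios were between -0.02 and -0.01. Their intervals ran from -0.31 to 0.27 at the widest. After thinning, 5.09%, 6.49% and 6.12% of spots had an Npr1 UMI and 4.95%, 5.85% and 5.61% an Npr2 UMI in sham, I/R and SBP. For both genes the interval of Ankrd1-high over other spots included 0 in every section.

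Npr1 was higher in spots rich in endothelial markers. It was at 13.6 against 8.17 CPM in sham, 23.1 against 8.43 in I/R and 17.8 against 10.5 in SBP, with log2 ratios of 0.74, 1.45 and 0.76 whose intervals all lay above 0. For Npr2 the intervals there included 0 in all sections. Higher Npr1 was not particular to the endothelial list. In sham, I/R and SBP it was at 0.82, 1.07 and 0.43 in endocardial-rich spots. The values were 0.64, 0.12 and 0.85 in fibroblast-rich and 0.57, 1.17 and 0.79 in macrophage-rich spots. Intervals included 0 for endocardial-rich in SBP, fibroblast-rich in I/R and macrophage-rich in sham. In I/R it was also higher in neutrophil-rich (0.92) and smooth muscle-rich (0.91) spots. Guanylyl cyclase receptors of ANP and BNP are known from endothelium as well as from muscle cells.

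Npr3 was at 5.29 CPM in sham (4.43 to 6.28), 3.64 after I/R (2.99 to 4.38) and 10.8 with SBP (9.48 to 12.3). SBP over I/R had a log2 ratio of 1.57 (1.24 to 1.91), which ranked 11th of 12151 genes. In contrast to the ligands, Npr3 was lower in Ankrd1-high than in other spots in sham, from 3 UMIs, and in SBP, with log2 ratios of -1.78 (-4.08 to -0.20) and -1.02 (-1.71 to -0.40). Spots rich in the 5 endocardial markers (a list without Npr3) held most of its UMIs in every section, with 28.1 against 2.74 CPM in sham, 21.6 against 1.95 in I/R and 74.5 against 4.33 in SBP. The log2 ratios were 3.35, 3.47 and 4.11. Higher Npr3 was not particular to the endocardial list. In sham, I/R and SBP it was at 1.86, 1.32 and 2.67 in fibroblast-rich spots. In conduction-rich spots it was at 1.98, 1.08 and 1.08, and all of these intervals lay above 0. Without spots above the sham 95th percentile of the endocardial markers, the ratio SBP over I/R was 0.87 and SBP over sham was 0.50. Of the 5 endocardial markers, Cytl1 (9.20, 5.46 and 13.1 CPM) and Vwf, the von Willebrand factor gene (37.1, 29.0 and 52.7 CPM), had the order of Npr3 over the sections. The other 3 were higher in I/R than in sham and highest in SBP, with Plvap at 10.6, 18.9 and 24.3 CPM, Hmcn1 at 2.35, 3.11 and 3.79 CPM and Nrg1 at 0.64, 1.06 and 1.16 CPM. For Hmcn1 and Nrg1 the interval of I/R over sham included 0. The amount of inner wall in each section was not measured here, and its part in these differences was not tested. Vwf and Plvap supplied most UMIs of the endocardial list. Vwf alone had 932 of its 1504 UMIs in sham, 877 of 1741 in I/R and 1141 of 2057 in SBP.

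Of the processing enzymes, Corin was nearly level and Furin was higher in I/R. Corin was at 31.6 CPM in sham (29.4 to 33.9), 35.3 after I/R (33.2 to 37.4) and 39.2 with SBP (36.6 to 41.9). The log2 ratio was 0.16 for I/R over sham, 0.15 for SBP over I/R and 0.31 for SBP over sham (0.17 to 0.45). The first of these was below the median of all genes, and with size factors or TMM it was -0.082 or -0.060. Furin was at 35.0 CPM in sham (32.8 to 37.4), 49.2 after I/R (46.7 to 51.7) and 40.2 with SBP (37.6 to 43.0), which puts I/R over sham at 0.49 (0.37 to 0.61) and SBP over I/R at -0.29 (-0.41 to -0.17) in log2. The medians of all genes were 0.24 and -0.17, and Furin ranked 3571st of 12231 and 7825th of 12151 from the highest ratio. No ratio of either gene reached 2-fold, while Nppa, the gene of the corin substrate, was 2.50-fold and 3.01-fold above sham.

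Corin and Furin were separated by the spots in which they were found. In macrophage-rich spots of I/R (the top 10% by 5 macrophage markers), Furin was at 132 CPM against 43.2 in the other spots, a log2 ratio of 1.61 (1.41 to 1.80), and Corin at 14.2 against 36.8, a log2 ratio of -1.37 (-1.96 to -0.84). In neutrophil-rich spots of I/R the log2 ratios were 1.65 for Furin and -1.49 for Corin, and in endothelial-rich spots 1.19 and -0.85. In sham and SBP, Furin was also higher in macrophage-rich spots, with log2 ratios of 0.64 and 0.72 whose intervals lay above 0, but the intervals for Corin included 0, at 0.07 and -0.27. The macrophage list was at 214 CPM in sham, 309 after I/R and 218 with SBP and the neutrophil list at 27.2, 236 and 115. Both sums had the order of Furin over the sections. Within the macrophage list, C1qb (144, 180 and 140 CPM) and Ms4a7 (8.68, 16.3 and 7.86 CPM) were lower in SBP than in sham. Adgre1, Cd68 and Csf1r were higher, and 4 of the 5 intervals of SBP over sham included 0. The part of these markers in the difference of Furin between sections was not tested. In Ankrd1-high spots Furin was modestly higher in each section, with log2 ratios of 0.37, 0.38 and 0.53, beside medians over all genes of 0.31, 0.24 and 0.21. For Corin the intervals of high over other spots included 0 in each section.

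**Figure D4:**
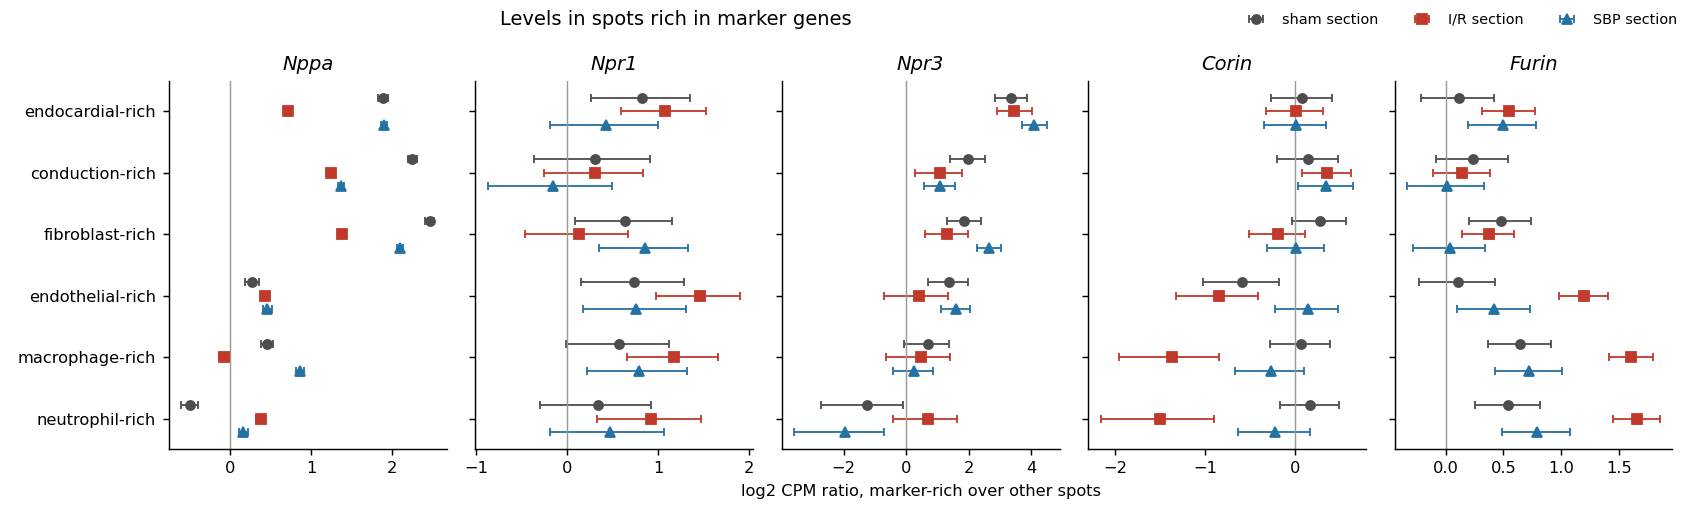
log2 ratio of CPM in spots rich in 6 marker lists (top 10% of the section) over the other spots for Nppa, Npr1, Npr3, Corin and Furin, 1 point per section with bars for the exact 95% counting interval, with a separate horizontal scale for each gene. Of these 6 lists, Npr3 is highest in endocardial-rich spots (3.35 to 4.11), Nppa in conduction-, fibroblast- and endocardial-rich spots, Furin in macrophage- and neutrophil-rich spots of I/R (1.61 and 1.65), and Corin is lower in the same I/R spots.

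Mme was the lowest of the 8 genes in UMIs, with 81 in sham, 72 after I/R and 59 with SBP, or 3.22, 2.38 and 2.73 CPM. All 3 intervals of its ratios between sections included 0, running from -0.92 to 0.04 for I/R over sham, from -0.33 to 0.71 for SBP over I/R and from -0.75 to 0.26 for SBP over sham. In SBP it was lower in Ankrd1-high spots, with 4 UMIs against 55 in the other spots and a log2 ratio of -1.61 (-3.53 to -0.17). Between 1.37% and 2.28% of thinned spots had a UMI of Mme, so most spots do not inform on it.

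Across the 8 genes, Ankrd1-high spots of the injured sections were set apart by the ligand genes. In I/R, Nppa and Nppb were the 2 genes past 2-fold, both higher, beside 2.12% of 11407 genes tested. In SBP the same pair was higher past 2-fold, beside 2.93% of 10468 genes, and Npr3 and Mme were lower past 2-fold, beside 1.65%. In sham 1 gene, Nppb, was higher past 2-fold, beside 8.95% of 10641 genes, and 1, Npr3, was lower, beside 2.52%.

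**Figure D5:**
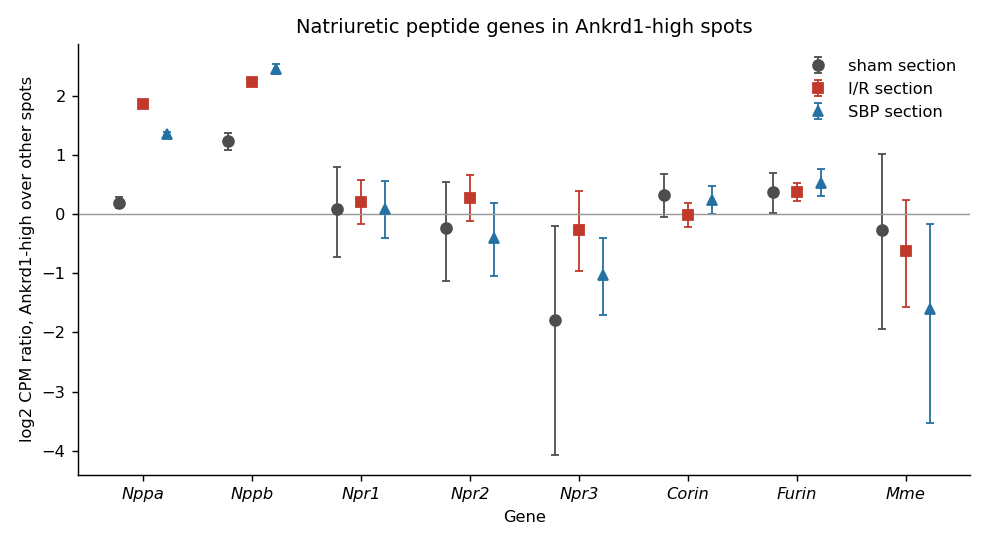
log2 ratio of CPM in Ankrd1-high over other spots for the 8 genes in each section, with bars for the exact 95% counting interval and a line at 0. Nppa is at 0.20 in sham, 1.87 after I/R and 1.36 with SBP, Nppb is at 1.23 or more in every section, and Npr3 and Mme have negative values with wide intervals.

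The rest of the pathway was read from a list of 19 genes for other peptides, convertases, cyclic GMP synthesis, its kinases and its phosphodiesterases, of which 16 had at least 50 UMIs over each pair of sections. The median log2 ratio of these 16 was -0.15 for I/R over sham, 0.12 for SBP over I/R and -0.07 for SBP over sham, beside medians of all genes of 0.24, -0.17 and 0.08. Intervals lay above 0 for 2 genes and below 0 for 5 in I/R over sham, for 4 and 3 in SBP over I/R and for 3 and 1 in SBP over sham. The share of all genes with such intervals was not computed, so these counts give no result about the pathway. Only Pde3b, a phosphodiesterase that cyclic GMP inhibits, was past 2-fold, at 1.04 for I/R over sham (0.45 to 1.66) in log2 and at -1.10 for SBP over I/R (-1.77 to -0.47), from 34, 84 and 28 UMIs in sham, I/R and SBP. Both Pde3b ratios lay just past the limit, and the size-factor shifts of -0.24 and 0.17 would put them below 2-fold. The share of all genes tested past 2-fold was 8.9% for I/R over sham, 4.87% for SBP over I/R and 2.21% for SBP over sham.

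Pcsk6, which encodes the convertase known to activate corin, was lower in both injured sections, at 52.2 CPM in sham, 26.8 after I/R and 31.7 with SBP. The log2 ratio was -0.96 for I/R over sham (-1.09 to -0.84), with -0.72 for SBP over sham (-0.85 to -0.58). Vasp, an actin regulator that the cyclic GMP kinase phosphorylates, was at 24.0, 40.5 and 25.7 CPM. Prkg1, the cyclic GMP kinase gene, was at 3.66, 3.27 and 5.09 CPM, and Pde5a, a phosphodiesterase of cyclic GMP, at 4.82, 3.37 and 3.98 CPM. Pde1c was at 15.6, 13.5 and 20.3 CPM. Ide, which encodes a further peptidase of natriuretic peptides, was at 40.6, 36.1 and 47.5 CPM. Nppc, the gene of C-type natriuretic peptide and ligand of Npr2, had 2 UMIs in sham, 2 after I/R and 0 with SBP, where a floor of 3 counts stands for 0.139 CPM.

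Among 12 genes for cardiac transcription factors and cofactors known at the Nppa and Nppb promoters, 1 was past 2-fold in any comparison. Of all genes tested, 8.9% were past it for I/R over sham, 4.87% for SBP over I/R and 2.21% for SBP over sham. Srf, the serum response factor, was at 10.2 CPM in sham, 15.9 after I/R and 7.77 with SBP, which puts I/R over sham at 0.65 (0.43 to 0.88) and SBP over I/R at -1.04 in log2. At -1.04 Srf lay just past the limit, and the size-factor shift of 0.17 for SBP over I/R would put it below 2-fold. Its order over the sections was that of I/R above sham above SBP, which differed from that of Nppa. Mef2c was at 31.6, 24.6 and 32.7 CPM and Gata6 at 22.4, 22.8 and 27.6. Of the other genes of the fetal program, Myh7 was at 100 CPM in sham, 302 after I/R and 596 with SBP, and so had the same order as Nppa. Acta1, skeletal actin, was at 396, 415 and 303 CPM, and Ankrd1 at 879, 1715 and 1367.

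Of the genes next to the ligand genes, Clcn6, on the far side of Nppa, had I/R over sham at 0.56 in log2, and Plod1, on the side of Nppb, had it at -0.01, neither of them past 2-fold in any comparison. Gm13054, which overlaps Nppa on the other strand, had 6, 23 and 15 UMIs.

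Across spots, the genes most like Nppa were ranked by the lowest of the 3 correlations, 1 per section, over 3129 other genes that had 500 UMIs or more per section. The correlations are descriptions of log2(UMIs per 10000 + 1) over spots that share a library and differ in depth. Nppb came first, with Pearson's r of 0.26 in sham, 0.70 after I/R and 0.55 with SBP, followed by Eef1a1, Ftl1, Bgn and Ecm1, each with a lowest r from 0.21 to 0.25. Myh7 was 6th and Ankrd1 123rd, at 0.12 in sham, 0.62 after I/R and 0.52 with SBP. For Nppb the first was Ankrd1, at 0.33, 0.71 and 0.58, followed by Acta1, Nppa, Cryab and Actb. For Furin the first 5 were Rplp1, Spp1, Tgfbi, Lgals3 and Rpsa, at 0.13 to 0.16 in their lowest section, and for Corin they were Atp2a2, Gja1, Uqcrb, Pln and Itga7, at no more than 0.06. The list of Furin holds genes known from macrophages (Spp1 and Lgals3), and that of Corin holds genes of cardiomyocyte calcium handling (Atp2a2 and Pln), but the values of Corin are too weak to order genes by.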

How the data were processed

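Per the labels, the authors processed the Visium libraries with Space Ranger 1.3.0 against mm10 and deposited matrices of UMI counts per gene and spot. The study's text gives another version, and the labels were followed here. Spot positions were not used here. Spots with at least 200 detected genes were kept (6 left out in all), and UMIs were summed over spots and scaled to CPM. Ratios of sums carry exact conditional binomial intervals, levels exact Poisson intervals and shares exact Clopper-Pearson intervals, all at 95%. Shares of spots came from spots thinned at random (seed 7) to 6500 UMIs, the 10th percentile of depth rounded down to a multiple of 500. Genes with at least 50 UMIs over both sums were set against a 2-fold limit. Of the array positions, 1091 barcodes occurred in all sections, which is a property of the array and not shared tissue. Member genes, marker lists and the Ankrd1 limit were chosen with earlier results of these data known. The text names all 8 genes, genes of the fixed lists, annotated neighbours and the 5 genes most like each ligand or enzyme with at least 500 UMIs per section. Positions came from GENCODE M21 (32158 of 32285 gene IDs matched). Python 3.11.15, numpy 2.4.6, scipy 1.17.1 and pandas 2.3.3 were used. Scripts were tested on simulated data. Alternatives for scaling, spot filter, thresholds and tissue content are given at the end, and those without endocardial- or conduction-rich spots were chosen after seeing the data.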

Additional observations from a re-analysis of the deposited data

Results flagged for a closer look

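In 7 of 103 contrasts of a gene between spots, intervals lay above 0 in 1 section and below 0 in another. These differences between sections were not tested, since each section is 1 sample. The share of such contrasts among all genes was not computed, so the count of 7 gives no result about the natriuretic peptide genes. Nppa has many UMIs and narrow intervals, so values near 0 also enter the count. An example is -0.054 in mural-rich spots after I/R (-0.108 to -0.00015). Nppa in neutrophil-rich over other spots had a log2 ratio of -0.50 in sham, 0.38 after I/R and 0.17 with SBP. Nppa in macrophage-rich spots was at 0.46 in sham, -0.070 after I/R and 0.86 with SBP. In mural-rich spots Nppa was at -0.20 in sham, -0.054 after I/R and 0.34 with SBP. In spots rich in the atrial list, whose UMIs are mostly those of Kcnj3, Nppa was at 0.78 in sham, -0.58 after I/R and 0.19 with SBP. In blood-rich spots Nppa was at 0.42 in sham, -0.17 after I/R and -0.21 with SBP. Nppb in endocardial-rich spots was at 0.33 in sham (0.18 to 0.49) and -0.19 in SBP (-0.35 to -0.03). Mme in blood-rich spots was at 1.10 in sham (0.21 to 1.91) and -2.05 in I/R (-5.13 to -0.15), from few UMIs.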

How the results depend on the processing

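No paired analysis was possible because no group holds more than 1 section, so no replicate could be left out either. For Nppa, all alternatives run kept the sign of the 3 whole-section ratios. However, SBP over I/R was only 0.012 without endocardial-rich spots, with no interval computed, so its direction is not established there. In the order I/R over sham, SBP over I/R and SBP over sham, log2 ratios were 1.21, 0.32 and 1.53 without mitochondrial genes, 1.08, 0.44 and 1.51 with median-of-ratios size factors, 1.10, 0.43 and 1.52 with TMM, and 1.71, 0.19 and 1.90 without the top 1% of spots. Equal weight per spot gave 1.49 for I/R over sham, with 1.78 for SBP over sham. Without atrial-rich spots these were 1.44 and 1.71, and without conduction-rich spots 1.58 and 1.83. Without endocardial-rich spots the 3 ratios were 1.44, 0.012 and 1.45. Size factors shifted all ratios by -0.24, 0.17 and -0.08. For Corin, I/R over sham was -0.082 with size factors and -0.060 with TMM. The count of genes past 2-fold for SBP over sham was 1 in place of 2 with size factors, TMM or no mitochondrial genes.

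For Nppa in Ankrd1-high over other spots of sham, the ratio reversed to -0.91 at a stricter limit (56 sham spots) and -0.55 without mitochondrial genes, and was 0.041 with thinned Ankrd1 counts, 0.81 with equal weight, 0.32 without atrial-rich, 0.33 without endocardial-rich and 0.60 without conduction-rich spots. In I/R it was 2.17 at the 90th percentile and 1.78 at the stricter limit, 1.93 thinned, 1.61 without mitochondrial genes, 1.74 with equal weight, 1.99 without endocardial-rich and 1.99 without conduction-rich spots. In SBP it was 1.61, 1.57, 1.48 and 1.26 in the first 4 of these, 1.72 without endocardial-rich and 1.61 without conduction-rich spots. The causes were not tested.

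Spots with both Nppa and Nppb in sham, I/R and SBP were 43.1%, 82.0% and 54.4% unthinned, 3.13%, 20.9% and 11.0% at 1000 UMIs, and 8.37%, 39.6% and 21.5% with at least 2 UMIs of each, always with I/R highest and sham lowest. Of 378 alternative values for the other 7 genes, 347 stayed within the counting interval, 29 moved outside it and 2 reversed in sign. The Nppa ratios, the counts past 2-fold and the shares with both ligands were less stable. Among their alternatives 31 stayed within the interval or, for the counts, near the main count, while 51 moved and 2 reversed. Low counts limit Npr1, Npr2, Npr3 and Mme, which had 59 to 286 UMIs per section.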
